A study of Sus scrofa with 4 samples.

Results

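The matricellular proteins and the collagen crosslinking enzyme lysyl oxidase were followed in infarcted minipig heart through 9 genes: LOX, TNC (tenascin C), THBS1 and THBS2 (thrombospondins), COMP (cartilage oligomeric matrix protein), POSTN (periostin), SPARC (osteonectin), FN1 (fibronectin) and SPP1 (osteopontin). Every probe set that the array annotation assigns to one of these symbols was taken, which gave 20 of the 24123 probe sets of the array and 9 of the 6765 genes with a symbol of their own. The genes were picked with earlier results of these same arrays known, by their signals with myoblasts against control and in the infarct against the border zone. All of these values are therefore a description and carry no test.

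The study injected human skeletal myoblasts into the heart of female Bama minipigs of 4 months, in which the left circumflex coronary artery had been ligated to cause myocardial infarction. The 4 samples were the border zone and the infarct zone of minipigs with myoblast transplantation, and the same zones of minipigs that the labels call untreated control. The paper names the control of its array comparison as the control treatment group, which by its methods was injected with DMEM and, like the myoblast group, received cyclosporin A at 5 mg/kg. With 1 array for each condition there is no spread between minipigs and no error for any value, and neither the number of minipigs behind an array nor the week of sampling is stated. Human transcripts of the graft may bind pig probes to an unknown extent, so host and donor RNA cannot be told apart, and in tissue RNA more cells of a type cannot be told apart from more RNA per cell.

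Matricellular proteins are secreted into the matrix, where they act mainly on how cells attach, migrate and respond to growth factors rather than as load-bearing fibres. They are scarce in most healthy adult tissue and are known to be produced in healing wounds, the infarcted heart included. Lysyl oxidase acts on the fibres themselves: it oxidizes lysine residues of collagen and elastin, from which the crosslinks form that stiffen a scar. Fibronectin lies between both classes, as a fibrous scaffold that cells bind and on which collagen is laid down.

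The values are MAS 5.0 signals, in arbitrary units and scaled to a common mean on each array, and the median signal of an array lay between 137 and 142. Of the 20 probe sets, 12 exceeded the array median on all 4 arrays, 2 did so on the myoblast border zone array alone, and 6 on none. Each of the 9 genes has a probe set among the 12. The 12 measured cardiomyocyte markers exceeded the median on every array. The signal at the 3' end of a transcript over that at the 5' end falls as RNA is better preserved. A first GAPDH pair of probe sets gave a ratio between 1.38 and 1.73, the highest on the myoblast border zone array. An actin pair was also highest there. The other GAPDH pairs and another actin pair were highest on the control infarct zone array, and the EF1A pair on the control border zone array. These pairs thus do not single out the myoblast border zone array. All of them were lowest on the myoblast infarct zone array, where the first GAPDH pair gave 1.38. That array enters the infarct zone ratio of myoblast over control and the zone ratio after myoblasts. The poly-A controls of bacterial origin stood, on the myoblast border zone array, at 2.16 times their level on the control border zone array. The part of the 3' over 5' ratios and of the poly-A controls in the results was not tested.

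**Figure D1:**
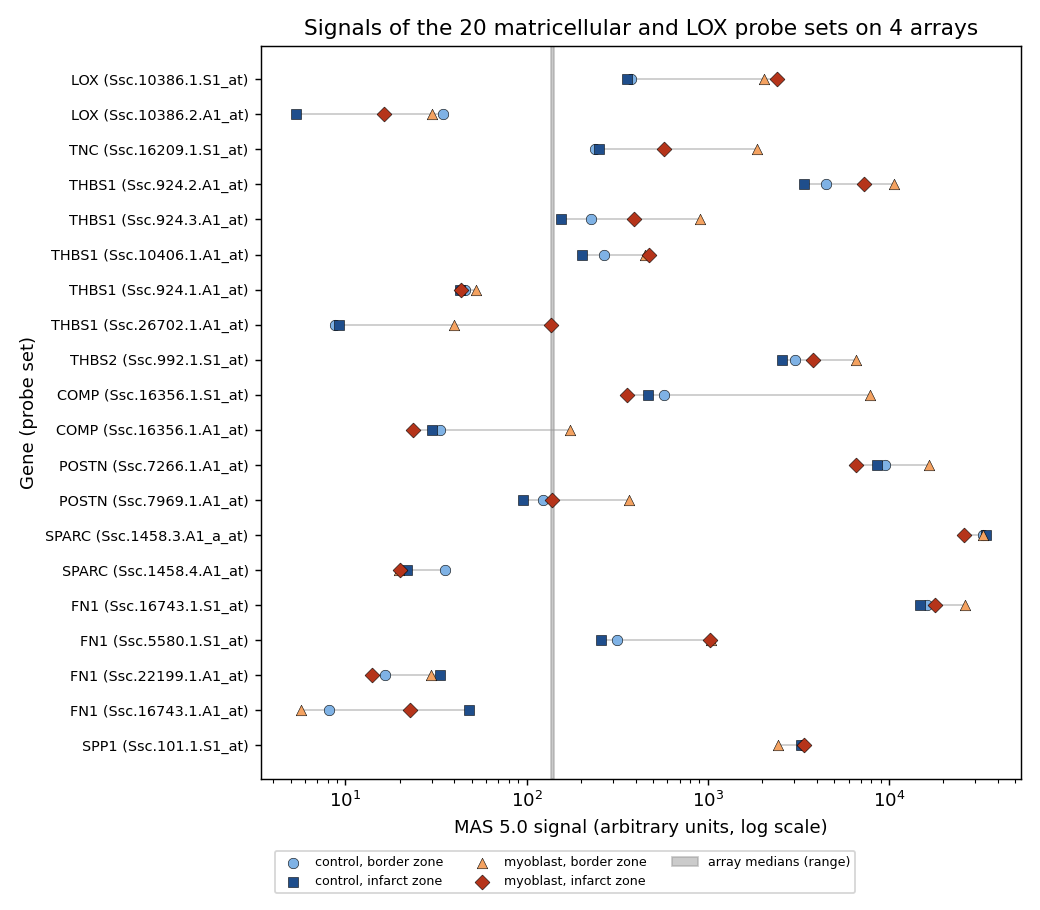
MAS 5.0 signals (x axis, log scale) of all 20 probe sets (y axis) on the 4 arrays, 1 symbol for each array, with the range of the array medians as a grey band and a grey line from the lowest to the highest signal of a probe set. The 2 myoblast arrays lie to the right of both control arrays for the brighter LOX probe set, the TNC probe set, the 3 brightest THBS1 probe sets, THBS2 and the 2 brightest FN1 probe sets, among others, while only the myoblast border zone array stands apart for COMP.

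Of the 20 probe sets, 10 were at least 2-fold higher with myoblasts in the border zone and 0 at least 2-fold lower, beside 9.95% and 10.4% of all probe sets of the array. In the infarct zone, 8 were at least 2-fold higher and 2 lower, beside 10.5% and 9.58%. In both zones alike, 6 were at least 2-fold higher and 0 lower, beside 2.91% and 2.81%. Since the members were chosen on these contrasts, nothing is read from the distance to the background. The median log2 ratio over the brightest probe set of each gene was 1.12 in the border and 0.28 in the infarct zone, against 0.02 and -0.001 over the 6765 genes.

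LOX was much higher with myoblasts in both zones on its brighter probe set. Its signals were 2051 in the border and 2429 in the infarct zone with myoblasts, and 378 and 358 in control, that is 5.42 and 6.78 times the control signal. Both myoblast arrays lay well above both control arrays, and the 2 zones of each treatment were close together, with infarct over border ratios of 0.947 in control and 1.18 after myoblasts. Ranked by the mean log2 ratio over zones, LOX stood at 7 among 5135 genes with a brightest probe set above the median of at least 1 array. Its mean border zone signal falls between 512 and 2048 units, where 2.19% of all probe sets passed 2-fold upward with myoblasts.

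The other LOX probe set lay far under the array medians, with 30.2 and 16.3 units with myoblasts against 34.4 and 5.33 in control (border and infarct zone). It gave a ratio of 0.878 in the border and 3.06 in the infarct zone, the latter over the lowest of the 4 signals. With the log2 signals of both LOX probe sets averaged, the log2 ratio of myoblast over control was 1.13 in the border and 2.19 in the infarct zone, and that of infarct over border was -1.39 in control and -0.32 after myoblasts, so the level zones of the brighter probe set are not shared by the other. Where the mean signal of the 2 arrays was under 32 units, 26.2% of all probe sets passed 2-fold upward and 28.1% downward in the border zone.

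TNC, a hexameric glycoprotein that loosens cell adhesion and marks sites of active remodelling, was higher with myoblasts in both zones and highest in the border zone. Its single probe set had 1866 and 575 units with myoblasts in the border and infarct zone, and 240.0 and 250.3 units in control. The control zones were thus nearly level, at an infarct over border ratio of 1.04, while after myoblasts the infarct zone had 0.308 times the border zone signal. The ratio of myoblast over control was 7.78 in the border and 2.30 in the infarct zone.

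The thrombospondins are multimeric calcium-binding glycoproteins. THBS1 activates latent TGF-β and inhibits vessel growth, THBS2 also restrains vessel growth and affects collagen fibril assembly, and COMP, a member of the same family, binds collagens in cartilage and tendon. THBS1 was higher with myoblasts in both zones on each of its 3 brightest probe sets. The brightest had 10658 and 7328 units with myoblasts against 4523 and 3419 in control, or 2.36 and 2.14 times (border and infarct zone). The next had 911 and 390.4 against 227 and 154 units, or 4.0 and 2.53 times. The third had 450.1 and 472 against 268 and 203 units, or 1.68 and 2.33 times, and so stayed under 2-fold in the border zone.

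On these 3 THBS1 probe sets both myoblast signals lay above both control signals, and the order of the zones differed between them only after myoblasts. The remaining pair of THBS1 probe sets did not exceed the median of any array. One was nearly flat, between 42.9 and 52.7 units. The other had 39.6 and 137 units with myoblasts against 8.72 and 9.17 in control, so that its ratios of 4.54 and 15.0 stood over very dim control signals.

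THBS2 had 6611 and 3797 units with myoblasts against 3047 and 2569 in control (border and infarct zone). Both myoblast arrays lay above both control arrays, at ratios of 2.17 and 1.48. The first is just past 2-fold. Within each treatment the infarct zone was lower, at 0.843 times the border zone in control and 0.574 times after myoblasts.

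COMP stood apart on a single array. Its brighter probe set had 7838 units in the border zone with myoblasts, against 571 in the control border zone, 468 in the control infarct zone and 359 in the infarct zone with myoblasts. The ratio of myoblast over control was 13.7 in the border and 0.768 in the infarct zone. After myoblasts the border zone had 21.8 times the signal of the infarct zone, and in control 1.22 times. The dimmer COMP probe set had the same order of arrays, with 174 units in the border zone with myoblasts against 33.4, 30.1 and 23.6 on the others.

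Among 5135 genes, COMP ranked 3 by the border zone ratio and 1 by the quotient of the border zone ratio over the infarct zone ratio, 17.9. A list of cartilage, tendon and bone markers, chosen with earlier results of these data known, was set beside it. ACAN, which encodes the cartilage proteoglycan aggrecan, had 263 and 26.4 units with myoblasts against 87.7 and 45.2 in control, and was also the gene nearest to COMP in its pattern over the 4 arrays, at a root mean square distance of 0.80 log2 units. SOX9, the transcription factor that defines cartilage cells, had 31.2 and 15.3 units with myoblasts against 7.36 and 9.30 in control, under every array median. COL2A1, the main cartilage collagen, had 92.2 and 114 units with myoblasts against 193 and 145 in control. CILP, a cartilage matrix protein that heart fibroblasts also make, had ratios of 1.23 and 0.868, on the same sides of control as COMP at a far smaller size. Over the 10 measured genes of this marker list, 2, ACAN and SOX9, were at least 2-fold higher and 4 lower in the border zone, 1 was higher and 1 lower in the infarct zone, 7 of the 10 were never above an array median, and the summed signal was 16174 units on the myoblast border zone array against 11196 to 13207 on the others, of which CILP alone gave 15670 and 10824 to 12751.

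POSTN, which is secreted by activated fibroblasts and promotes collagen fibril assembly, followed COMP in its order of arrays at a far smaller size. Its brighter probe set had 16608 and 6583 units with myoblasts against 9569 and 8626 in control (border and infarct zone). The myoblast border zone was the highest of the 4 arrays and the myoblast infarct zone the lowest, so that the ratio of myoblast over control was 1.74 in the border and 0.763 in the infarct zone. The infarct zone had 0.396 times the border zone signal after myoblasts and 0.902 times in control. The dimmer POSTN probe set had 369.9 and 139 units against 124 and 95.2, and differed from the brighter one in the infarct zone, where its ratio was 1.46.

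SPARC, a collagen-binding protein needed for collagen to be laid down and assembled, spanned the least over the 4 arrays among the 9 genes, 1.32-fold from lowest to highest. Its brighter probe set had 33057 and 26158 units with myoblasts against 32992 and 34401 in control, ratios of 1.0 and 0.760. With quantile normalization the infarct zone came close to level as well, at a log2 ratio of -0.045 in place of -0.395. The dimmer one stayed between 19.7 and 35.3 units.

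FN1 was higher with myoblasts in both zones on its 2 brightest probe sets, but by unequal amounts. The brightest had 26386 and 17931 units with myoblasts against 16199 and 14819 in control, or 1.63 and 1.21 times. The next had 1038 and 1026 against 316 and 258 units, or 3.28 and 3.97 times. After myoblasts the infarct zone had 0.680 times the border zone signal on the first and 0.988 times on the other. The remaining FN1 probe sets were under the array medians throughout, at 5.67 to 47.8 units, and in the infarct zone both were at least 2-fold lower with myoblasts, at 0.422 and 0.473 times control.

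SPP1, a secreted phosphoprotein made by macrophages and other cells of the wound that binds integrins and CD44, was level on 3 of the 4 arrays. It had 3358 and 3293 units in control and 3399 in the infarct zone with myoblasts, and 2453 in the border zone with myoblasts. The ratio of myoblast over control was 0.731 in the border and 1.03 in the infarct zone. It was thus the one gene of the 9 whose brightest probe set was lowest in the border zone with myoblasts, where 6 others were at their highest.

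**Figure D2:**
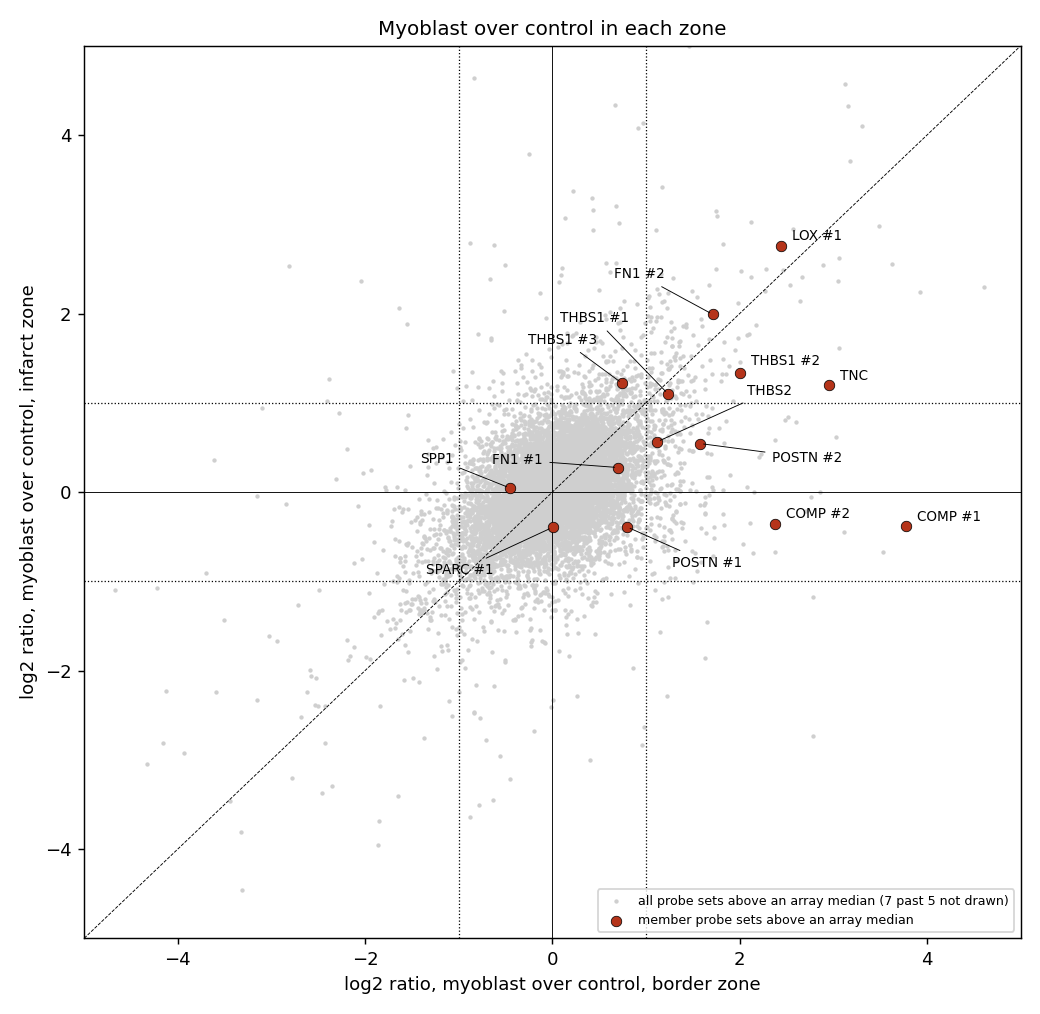
Log2 ratio of myoblast over control in the border zone (x axis) and in the infarct zone (y axis) for the 14 member probe sets above the median of at least 1 array (red, numbered from the brightest of a gene) and for all such probe sets (grey). Dotted lines mark 2-fold and the dashed line equal ratios. LOX lies near the dashed line at 2.44 and 2.76, while COMP lies far to the right of it at 3.78 and -0.38.

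In control minipigs the border and infarct zones differed little in these genes, as in most brighter probe sets of the array. Over the brightest probe sets, the log2 ratio of infarct over border ran from -0.40 for THBS1 to 0.06 for TNC, with a median of -0.13 against 0.03 over all genes. Of the 20 probe sets, 1 was at least 2-fold higher in the infarct zone and 1 lower, beside 8.95% and 8.25% of all probe sets. They were the dimmest FN1 probe set (8.07 units in the border and 47.8 in the infarct zone) and the dim LOX probe set. None of the 14 probe sets above the median of an array reached 2-fold in control. Of all 12570 probe sets above the median of at least 1 control array only 1.23% did, so nothing particular to the members is read from this.

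After myoblasts the zones lay further apart. The infarct zone was the lower one for 14 of the 20 probe sets, as it was for 15 in control. Of the 20 probe sets, 7 were at least 2-fold lower in the infarct zone and 2 at least 2-fold higher, beside 8.18% and 9.77% of all probe sets. The 7 were both COMP and both POSTN probe sets, TNC, 1 of THBS1 and a dim one of FN1. Of the 14 above a myoblast array median, 6 were at least 2-fold lower and 0 higher, beside 2.32% and 1.36% of such probe sets. The median log2 ratio over the brightest probe sets was -0.56, against 0.04 over all genes. LOX and SPP1 were the exceptions among the 9, with infarct over border ratios of 1.18 and 1.39.

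The zone and treatment comparisons share arrays. The myoblast border zone array entered the border zone ratio of myoblast over control and the zone ratio after myoblasts, and no other comparison. It held the highest signal of the brightest probe set for TNC, THBS1, THBS2, COMP, POSTN and FN1, 6 of the 9 genes, and 29.0% of 5135 genes had their highest signal there. The ratio of myoblast over control was at least 2-fold smaller in the infarct than in the border zone for 6 of the 20 probe sets and at least 2-fold larger for 2, beside 12.6% and 13.5% of all probe sets. The 6 were those of COMP, POSTN and TNC and a dim one of FN1, and the 2 were the dim LOX probe set and the dim THBS1 probe set with the ratio of 15.0.

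**Figure D3:**
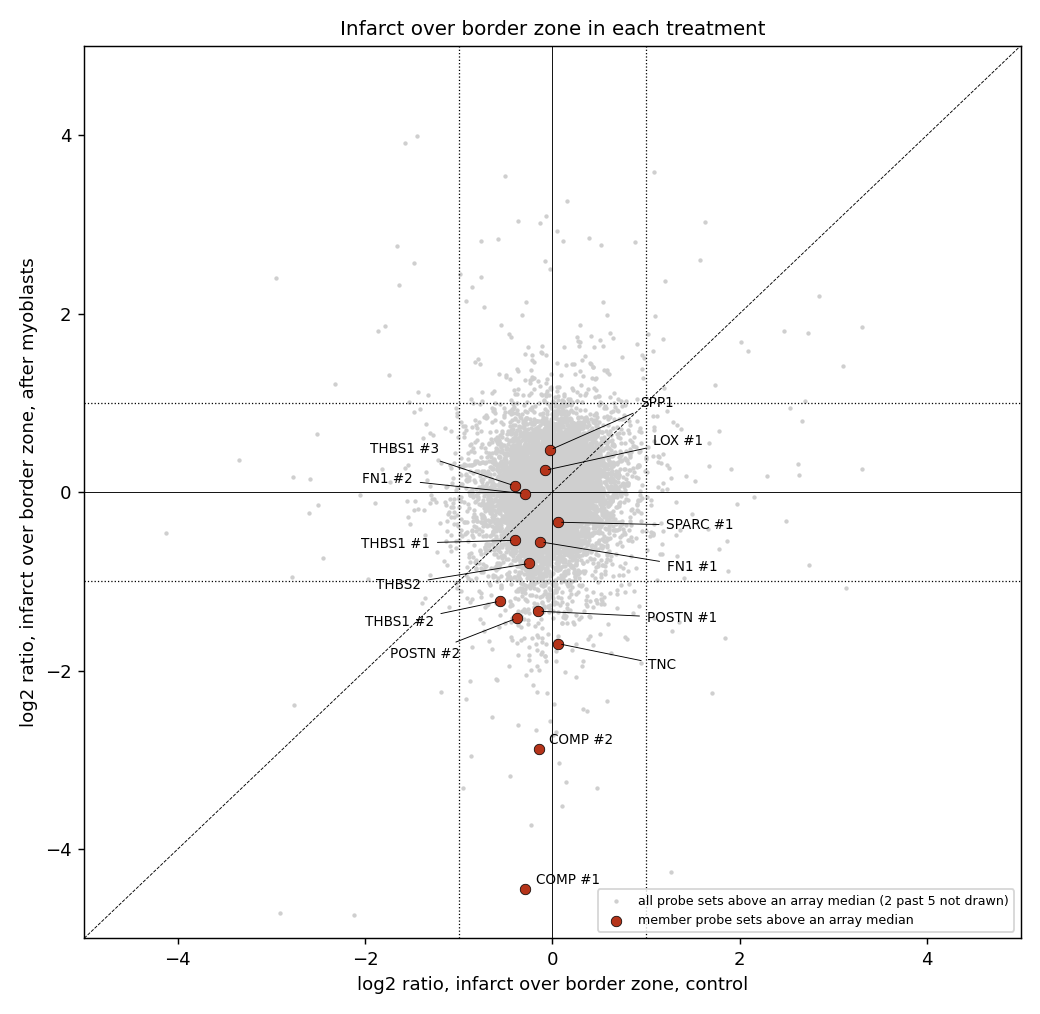
Log2 ratio of infarct over border zone in control (x axis) and after myoblasts (y axis) for the 14 member probe sets above the median of at least 1 array (red, numbered from the brightest of a gene) and for all such probe sets (grey). Dotted lines mark 2-fold. The members lie within 2-fold on the x axis, as most grey probe sets do, and COMP, TNC, POSTN and 1 THBS1 probe set fall past 2-fold on the y axis.

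The genes nearest in pattern were sought for each of the 6 members whose brightest probe set spanned at least 2-fold, as the smallest root mean square distance of centred log2 signals over the 4 arrays. With 4 points such likeness is weak and is given as a description only. Nearest to LOX were CCL2, a chemokine for monocytes (ratios of 5.52 and 5.63, distance 0.24), and the chemokine CXCL14 (5.95 and 7.73, distance 0.25). The third was LOC100510975 (distance 0.29). Nearest to TNC were NPPA, the precursor of atrial natriuretic peptide (4.24 and 3.38, distance 0.37), FBP1, an enzyme of gluconeogenesis (distance 0.42), and RASSF2 (0.44).

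THBS1 was nearest to SLC46A2 (distance 0.09), LOC100154081 (0.13) and CCDC14 (0.14). THBS2 was nearest to NDN (distance 0.03), B4GALT1, a galactosyltransferase (0.05), and PHACTR3 (0.08). After ACAN, COMP was nearest to PDYN (0.81) and TYR (0.84), a looser likeness than for the other members. POSTN was nearest to RCN1, a calcium-binding protein of the endoplasmic reticulum (0.04), IGFBP6, which binds insulin-like growth factors (0.06), and PRELP, a small leucine-rich matrix protein (0.07). PRELP had 10490 and 3638 units with myoblasts against 5674 and 5236 in control, again highest in the border and lowest in the infarct zone with myoblasts.

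Of the other enzymes that modify or crosslink collagen, none measured was at least 2-fold higher with myoblasts in the infarct zone, where LOX was. Of 22 listed, 10 were measured, of which 1 was at least 2-fold higher with myoblasts in the border zone and 1 lower in the infarct zone. LOXL4, a relative of LOX with the same catalytic activity, had 960.0 and 270 units with myoblasts against 310 and 294 in control, or 3.1 and 0.917 times. LOXL1, which crosslinks elastin, had 3420 and 1002 against 2464 and 2200 units, or 1.39 and 0.455 times. The brighter LOX probe set, by contrast, was no lower in the infarct than in the border zone with myoblasts. The dim LOX probe set was lower in the infarct zone, at 16.3 against 30.2 units. PCOLCE2, an enhancer of procollagen processing, had ratios of 1.39 and 1.17, and FKBP10, a collagen chaperone, of 1.14 and 0.716. The median log2 ratio of the 10 was 0.36 in the border and 0.14 in the infarct zone. In the zone comparison it was -0.20 in control and -0.46 after myoblasts, with 0 and 2 of them, LOXL1 and LOXL4, at least 2-fold lower in the infarct zone.

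Of 29 other matricellular proteins listed, 7 were measured, and the median log2 ratio was 0.36 in the border and -0.001 in the infarct zone. FBLN1 (fibulin 1, which binds fibronectin and elastic fibres) had ratios of 2.06 and 1.45, and LGALS3 (galectin 3, abundant in macrophages) of 1.53 and 2.88. They were the only ones past 2-fold, 1 in each zone. TNXB, a tenascin of the resting connective tissue, had 0.605 and 0.879 times the control signal, and SPARCL1, the close relative of SPARC, 0.905 and 0.989 times. Thus of the tenascins TNC was higher and TNXB lower than control in both zones. THBS3 had ratios of 1.28 and 0.999.

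Of 24 receptors for these proteins listed, 12 were measured, with median log2 ratios of 0.04 and -0.05 in the border and infarct zone. ITGA8, the integrin chain that binds fibronectin, tenascin C and osteopontin, had 358 and 150.0 units with myoblasts against 168 and 149 in control. Its ratio of 2.14 in the border zone was the one ratio of myoblast over control past 2-fold in the list, and between the control zones it too differed little, at 0.891. ITGB5 had ratios of 1.29 and 0.992, ITGA5, the fibronectin receptor chain, of 0.650 and 1.12, and SDC1 of 0.791 and 0.816. ITGAV and ITGB1, the chains most of these ligands share, had ratios of 1.03 and 0.842, and of 1.03 and 1.10. CD47, the thrombospondin receptor, had 0.938 and 0.942.

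Markers of the cells that could supply these transcripts were set beside the members. Of 9 measured fibroblast and myofibroblast markers, 0 were at least 2-fold higher in either zone and 1, COL3A1, lower in the infarct zone, at 0.371 times control on its brightest annotated probe set. That probe set was dim, with 155 and 118 units with myoblasts against 208 and 318 in control, and 118 is under the median of its array. Their summed signal was 105420 and 81543 units with myoblasts against 95533 and 95391 in control (border and infarct zone). It was thus highest in the border and lowest in the infarct zone with myoblasts, the order seen for POSTN. The sum is mostly that of VIM, DCN, LUM and ACTA2, with 27169, 24168, 22643 and 13169 units in the border zone with myoblasts. Of the 9 markers, LUM and THY1 had this order themselves and the others did not. ACTA2 had ratios of 1.05 and 1.73, and FAP of 1.75 and 1.20. THY1, a surface protein of fibroblasts, had ratios of 1.17 and 0.558, LUM (lumican) of 1.17 and 0.651, TAGLN of 1.83 and 1.95, and COL1A2 of 1.37 and 1.61. The part of fibroblast number in the results was not tested.

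Of 11 measured macrophage and monocyte markers, 3 were at least 2-fold higher in the border and 3 in the infarct zone, 0 were lower, and the medians of the log2 ratios were 0.28 and 0.52. Their summed signal was 8580 and 11722 units with myoblasts against 8589 and 10365 in control. ITGB2 had ratios of 2.36 and 1.55, TYROBP of 1.88 and 1.32, and GPNMB of 0.807 and 0.860. Of the markers past 2-fold, CD14, ITGAM and FCGR1A lay under every array median. C1QA, which lay above them, had 642 units with myoblasts against 314 in control in the infarct zone, a ratio of 2.05. In the border zone its ratio was 0.949.

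Of 12 cardiomyocyte markers, NPPA was at least 2-fold higher in both zones and 0 were lower. Their median log2 ratios were -0.23 and -0.32. The summed signals were 222357 and 239043 units with myoblasts against 252200 and 289018 in control, lower in both zones. Scaling matters for signals this bright: quantile normalization took the infarct zone log2 ratio of the brighter SPARC probe set from -0.395 to -0.045. The lists were not put through it, so the part of scaling in their sums was not tested. ACTC1 had ratios of 0.737 and 0.746, MYL3 of 0.719 and 0.754, and ATP2A2, the calcium pump, of 0.999 and 1.12. Of 8 measured skeletal muscle and myoblast markers, DES alone exceeded an array median, at 0.835 and 0.709 times control, and the summed signal was 9110 and 11179 units with myoblasts against 10913 and 15714 in control. In the border zone 1 of the 8 was at least 2-fold higher and 3 lower, and in the infarct zone 2 were higher and 3 lower, all of them under every array median. MYOD1 and MYF5, which define myoblasts, were at 2.18 to 45.3 units on the 4 arrays and lower with myoblasts in both zones. The fibre genes went both ways, with TNNI2 at 3.19 and 0.0920 times control, TNNT3 at 0.120 and 6.85 times and MYH2 at 0.742 and 8.10 times, from signals of 2.22 to 42.7 units.

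Endothelial markers had median log2 ratios of 0.24 and 0.45 over 10 genes, with 1 at least 2-fold higher in the border and 2 in the infarct zone. SELE (E-selectin) had ratios of 39.3 and 93.1 over control signals of 5.09 and 1.89 units, CDH5 of 1.37 and 2.04, PECAM1 of 0.860 and 1.12, and VWF of 0.899 and 1.05. Their summed signal was 8794 and 10534 units against 8371 and 7922 in control. Of 6 smooth muscle and pericyte markers, 0 passed 2-fold in any of the 4 comparisons. Their medians were -0.03 and -0.08, with ACTG2 at 1.65 and 1.21, SMTN at 1.08 and 1.35 and RGS5 at 0.714 and 0.768, and their summed signal was 27802 and 26297 units with myoblasts against 27401 and 30728. Of 5 platelet and blood cell markers, 0 were at least 2-fold higher and 2 lower in the infarct zone, with medians of -0.26 and -0.63. HBB (beta globin) had ratios of 1.73 and 1.57, GP9 of 0.538 and 1.26, and ALAS2 of 0.832 and 0.451, and the summed signal was 1784 and 1302 against 1351 and 1003 units.

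**Figure D4:**
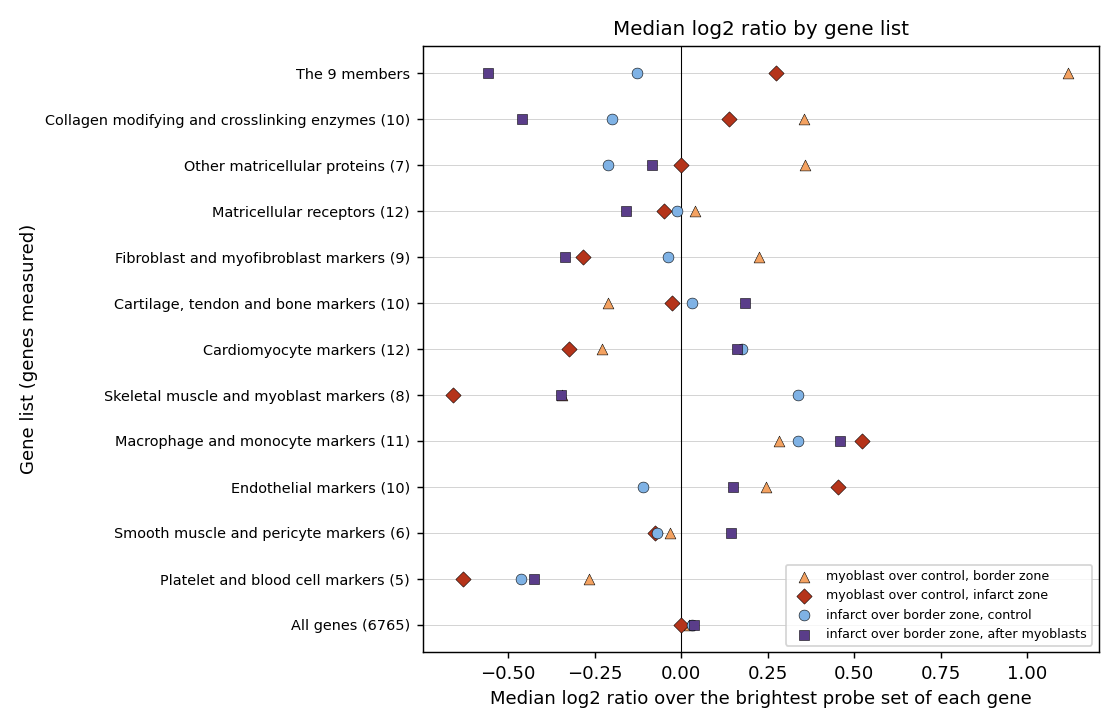
Median log2 ratio (x axis) in the 4 comparisons over the brightest probe set of each gene, for the 9 members, 11 lists and all genes (y axis, with how many were measured). The members, which were chosen on these contrasts, had a median of 1.12 in the border zone, and the 10 collagen modifying enzymes one of 0.36.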

How the data were processed

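RNA of heart tissue was hybridized to Porcine Genome Arrays (Affymetrix), with 1 array for each of 4 conditions. The deposited values are log2 signals of the MAS 5.0 algorithm, which the authors scaled to a common mean for each array, and Gene Spring Software 11.0 was named for the analysis. They were used as deposited and are printed as linear signals. With 2% trimmed at each end, every array averaged close to 500.1 units. All 4 arrays were used. The array annotation gave 1 symbol for 10099 probe sets, several for 198 and none for 13826. By gene ID, 9989 matched the reference, with 0 symbols changed. No sequences of these genes were used here.

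For each probe set the log2 signals of 2 arrays were subtracted, and 2-fold, the threshold of the methods, was called with no test. A list is given by the brightest probe set of each gene. The members and lists were chosen with earlier results of these data known. Lists covered collagen modifying enzymes, other matricellular proteins, receptors, and markers of fibroblasts, cartilage, cardiomyocytes, skeletal muscle, macrophages, endothelium, smooth muscle, and platelets and blood cells. Named were all members, the 3 genes nearest in pattern to each member spanning 2-fold, and from each list up to 2 genes at either end of the mean log2 ratio over zones, if above the median of an array. Other genes named were chosen after their values were seen. The number of arrays limits the precision. Alternatives were a quantile normalization, arrays centred on their medians, signals floored at the median or at percentile 25 of their array, brighter probe sets alone, and 1 probe set or the mean of all for each gene. The code for the calls was checked on simulated data, which gives no error rate for them. Python 3.11.15 and pandas 2.3.3 were used.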

Additional observations from a re-analysis of the deposited data

Results flagged for a closer look

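Several probe sets were above control in one zone and below it in the other, or had opposite zone differences in the 2 treatments. With 1 array for each condition none of these differences was tested. The values below are the log2 ratio of myoblast over control in the infarct zone minus that in the border zone, which equals the log2 ratio of infarct over border after myoblasts minus that in control. Above and below control in the border and infarct zone were both COMP probe sets (-4.16 for the brighter and -2.73 for the dimmer), the brighter POSTN probe set (-1.19), the brighter SPARC probe set (-0.40, also opposite between zones) and a dim FN1 probe set with 16.6 units in the control border zone (-2.08, also opposite between zones). Below control in the border zone and above it in the infarct zone were the dim LOX probe set (1.80) and SPP1 (0.50, also opposite between zones). Opposite in the zone difference alone were TNC (-1.76), the brighter LOX probe set (0.32), the THBS1 probe set of 203 to 472 units (0.47) and the dim SPARC probe set (0.71). The FN1, SPARC and LOX probe sets called dim here lay under the array medians on all 4 arrays.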

How the results depend on the processing

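No paired analysis was possible because each condition has 1 array and the labels carry no replicate numbers, and for the same reason no array could be left out. The counts of probe sets at least 2-fold apart kept within 1.5 times of their value with quantile normalization and with centring on array medians in all 4 comparisons. For myoblast against control in the border zone the count of 10 was 5 over the brightest probe set of each gene. In the infarct zone the count of 10 was 6 with signals floored at the array median, 6 over probe sets above the array median and 3 over the brightest probe sets. Between the zones of control the count of 2 was 0 under both floors, over the brighter probe sets and over the brightest ones. Between the zones after myoblasts the count of 9 was 5 with the floor at the array median and 3 over the brightest probe sets. Restricting to brighter or brightest probe sets leaves fewer of them to count. With quantile normalization or centring, signs turned only where the ratio was close to 1. For the brighter SPARC probe set the log2 ratio of infarct over border in control went from 0.06 to -0.13 (quantile), so that it was below 0 in both treatments, and that of myoblast over control in the border zone from 0.0029 to -0.0039 (centring). The infarct zone ratio of SPP1 went from 0.046 to -0.0038 (centring), and the zone ratio after myoblasts of the second FN1 probe set from -0.018 to 0.015 (quantile). One dim probe set each of THBS1 and SPARC also turned. Averaging the probe sets of a gene took LOX from -0.08 to -1.39 (infarct over border, control), past 2-fold, and from 0.24 to -0.32 (after myoblasts), and POSTN from 0.80 to 1.19 (border zone), past 2-fold, and from -0.39 to 0.08 (infarct zone). It turned SPARC to -0.42 (border zone) and -0.32 (infarct over border, control), and FN1 to -0.015 (infarct zone), 0.78 and 0.08 (infarct over border, control and after myoblasts), each under 2-fold. Signs of 2-fold differences turned only for dim probe sets under a floor. The dim LOX probe set had -0.024 (myoblast over control, infarct zone) and 0.055 (infarct over border, control) with the floor at the 25th percentile. The FN1 probe set with 16.6 units in the control border zone had 0.049 (myoblast over control, infarct zone) at the median floor, and 0.10 and 0.023 (infarct over border after myoblasts) at the 25th percentile and median floors. The FN1 probe set of 5.67 to 47.8 units had 0.049 (myoblast over control, infarct zone) and -0.019 (infarct over border, control) at the median floor. These are the values of a probe set at or near the floor on both arrays.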
